A study of Caenorhabditis elegans with 15 samples.

Results

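Whole worms of the germline-less glp-1 strain SHU47 were set against whole worms of strain TU3401, both on the control RNAi labelled luc, to ask how the RNA of an adult Caenorhabditis elegans differs when it has no germline. The account covers 13569 of the 42048 genes listed by the authors, those with a mean over the 6 libraries of at least 1 RPKM (reads scaled to gene length and to library depth). The tested worms, called glp-1 worms here, carry the label glp-1 as genotype and were whole animals on adult day 1 (n = 3 libraries). TU3401 worms had no genotype entry and were of the same age and tissue (n = 3 libraries). TU3401 is known as a strain in which feeding RNAi acts mainly in neurons, since the double-stranded RNA channel SID-1 is missing in other tissues and restored in neurons by a transgene. All worms were kept at 20 °C and fed HT115 (DE3) bacteria with an L4440 vector; the sources used here give neither the glp-1 allele nor any shift of temperature, and do not say whether SHU47 carries the alleles of TU3401. The series also holds 9 libraries of the glp-1 strain on RNAi to hlh-30, atg-2 or atg-18, which enter no test here. Whether replicate libraries were grown as separate cultures is not stated, and p-values therefore reflect only how far these libraries spread, possibly for technical reasons.

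The adult hermaphrodite gonad is a pair of tubes in which stem cells at the tip divide, enter meiosis and grow into oocytes. GLP-1 is a Notch receptor on these stem cells; without its signal they stop dividing and the adult is left with a somatic gonad that holds almost no germ cells. The germline is the only tissue of the adult worm in which cells still divide, and it makes the maternal RNA that oocytes carry into the embryo. Adults without a germline are known for their long life and large fat stores. A day-old adult with a germline also holds fertilised eggs, so a whole-worm library of TU3401 can contain RNA of embryos.

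Recovered depth was 18754390 to 23322670 reads in the glp-1 libraries and 21434170 to 25599148 in the TU3401 libraries. Libraries of a group correlated at r = 0.983 to 0.991 across genes, which are not independent replicates. glp-1 itself, read first as a check of the labels, stood at 3.37, 2.52 and 2.98 RPKM in glp-1 worms, against 73.7, 67.9 and 67.3 RPKM in TU3401 worms. sid-1 stood at 178, 154 and 150 RPKM in glp-1 worms, against 134, 105 and 117 RPKM in TU3401 worms, so its RNA was present in both strains. glp-1 is read mainly in germ cells, so its level does not show which allele is present.

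Markers of 11 tissues and stages were read next. All 15 germline markers and all 11 oocyte and eggshell markers fell in glp-1 worms. The 15 germline markers, among them the P granule genes glh-1 and pgl-1, summed to 87.9, 55.5 and 63.2 RPKM in glp-1 worms, against 2966, 3045 and 2943 RPKM in TU3401 worms. The 11 oocyte and eggshell markers summed to 51.6, 8.13 and 8.79 RPKM in glp-1 worms, against 5281, 5010 and 5108 RPKM in TU3401 worms. The first glp-1 library thus held more oocyte RNA than the other two, at a level still far under TU3401. None of the 10 sperm markers reached a mean of 1 RPKM, and together they summed to 0.986 to 1.45 RPKM in glp-1 libraries and 0.464 to 1.69 RPKM in TU3401 libraries. Of 10 embryo markers listed, 9 lay under 1 RPKM in all glp-1 libraries and 3 in all TU3401 libraries. Only 6 were tested, and 5 of these fell. Genes near 0 in glp-1 worms pass the filter only through TU3401, so these 5 falls were fixed in advance. The early zygotic regulators end-1, tbx-37, tbx-38, sdz-38 and ceh-51 lay at 0 to 0.163 RPKM in the glp-1 libraries, against 2.09 to 6.86 RPKM in the TU3401 libraries. The exception, elt-7, is a gut factor that stays on in adults; it rose to 21.1, 19.3 and 18.2 RPKM in glp-1 worms, against 7.93, 8.60 and 7.39 RPKM in TU3401 worms.

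**Figure D1:**
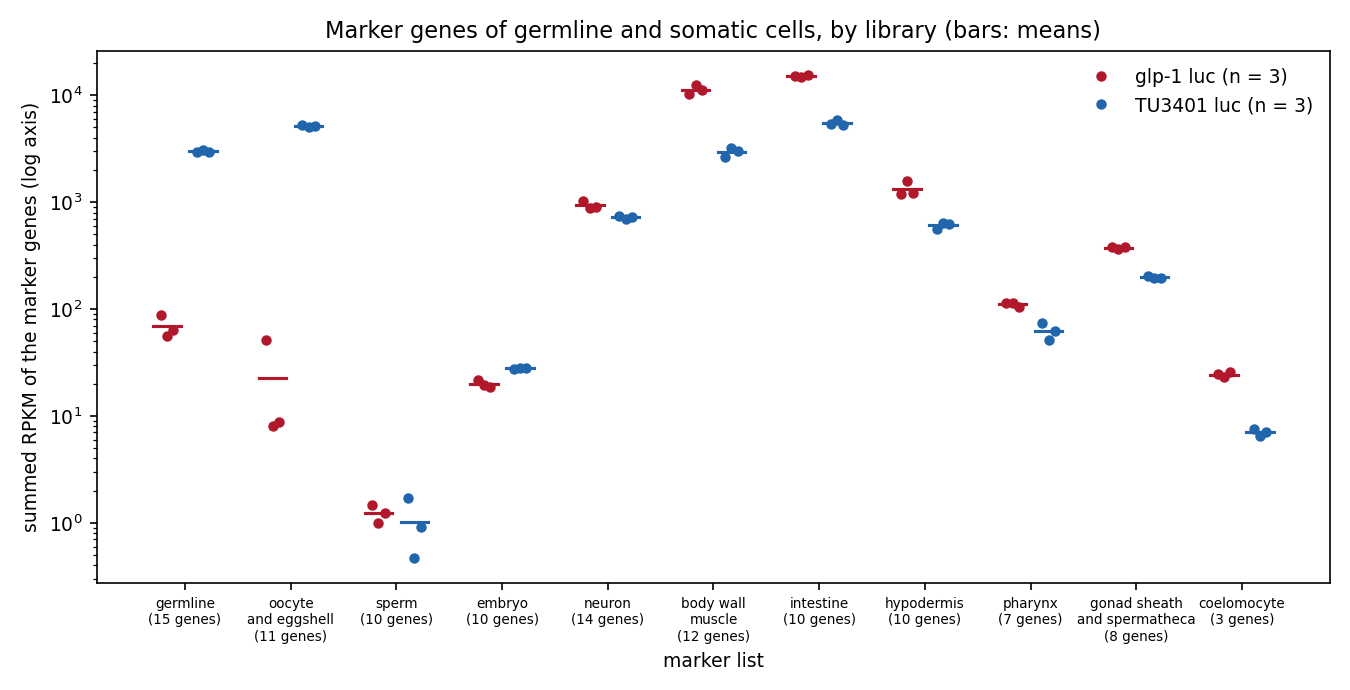
Summed RPKM of 11 marker lists (log axis) in each of 3 glp-1 libraries (red) and 3 TU3401 libraries (blue); bars are means. Germline and oocyte sums lie far lower in glp-1 worms, with the first glp-1 library highest among the 3 in the oocyte list, while muscle, intestine and coelomocyte sums lie higher.

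Summed markers of each somatic tissue were higher in glp-1 worms, but not to the same degree, and not for every marker. The 12 body wall muscle markers summed to 10243, 12478 and 11253 RPKM in glp-1 worms, against 2666, 3216 and 2992 RPKM in TU3401 worms, a ratio of 3.83. The ratio was 3.44 for 3 coelomocyte markers, 2.78 for 10 intestinal markers and 1.90 for 8 markers of gonad sheath and spermatheca. It was 1.77 for 7 pharynx markers, of which 5 rose and 1 fell. In the hypodermis the sum had a ratio of 2.19, while 5 of 8 tested markers fell, with a median of -1.86. The 14 neuronal markers had a ratio of only 1.29, but most of that sum is snb-1, the synaptic vesicle protein synaptobrevin, at 711, 585 and 589 RPKM in glp-1 worms, against 606, 577 and 601 RPKM in TU3401 worms. Of the 14, 10 rose, the neuropeptide-processing enzyme gene egl-21 among them, at 97.3, 97.8 and 99.6 RPKM in glp-1 worms, against 28.7, 27.5 and 28.7 RPKM in TU3401 worms. The median neuronal marker differed by 0.92 on the log2 scale, the median muscle marker by 1.97. In whole animals fewer cells of a type and less RNA per cell cannot be told apart.

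Of the 13569 genes, 12175 (89.7%) passed the test, limma on log2(RPKM + 1) with Benjamini-Hochberg adjusted p under 0.05; 5615 (41.4%) were higher and 6560 (48.3%) lower in glp-1 worms. The 3 glp-1 libraries did not overlap the 3 TU3401 libraries in 90.2% of genes. Calls of at least 1 on the log2 scale, a doubling or halving of RPKM + 1, numbered 4003 higher (29.5%) and 5406 lower (39.8%). These percentages are the background for every count below. Falls were larger than rises: 862 genes fell by at least 4 and 34 rose by at least 4. The genes that fell by at least 1 made up 11.19%, 11.18% and 11.15% of summed RPKM in glp-1 worms, against 53.8%, 53.6% and 53.6% in TU3401 worms. They were chosen by their fall in these same libraries, so a lower share in glp-1 worms was fixed in advance. RPKM is a share of the library, so a gene can gain RPKM when others lose it. Most of the neuronal sum is snb-1, so a scale set on it mainly follows that gene. The median neuronal marker differed by 0.92, as given above. When libraries were scaled on the neuronal markers alone, differences shifted by a median of -0.33 and 40.8% of called genes were higher. When they were scaled on neuronal and muscle markers together, a sum that is mostly muscle, differences shifted by a median of -1.54 and only 1115 of the 13841 genes then tested (8.06%) were higher, with 9545 (69.0%) lower. This second scale is called the muscle scale below.

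The most abundant genes took a larger share in glp-1 worms. The 10 genes with the most reads in a library held 18.8% to 20.4% of its reads in glp-1 worms. They held 8.17% to 9.19% in TU3401 worms. Ranked by RPKM, the top 10 held 9.77% to 10.1% of summed RPKM in glp-1 worms, against 4.75% to 5.01% in TU3401 worms. By mean RPKM far-2, a fatty acid and retinol binding protein, led glp-1 worms. It stood at 20058, 18082 and 19681 RPKM in glp-1 worms, against 4294, 4973 and 4867 RPKM in TU3401 worms. C17F4.7 came next at 16534, 14860 and 15596 RPKM in glp-1 worms, against 2745, 2213 and 2561 RPKM in TU3401 worms. The remaining 8 of the top 10 by mean RPKM in glp-1 worms included the yolk protein genes vit-5, vit-2 and vit-6. The others were the saposin-like gene spp-5, the collagens col-122 and col-181, dct-16 and Y119D3B.21. Each of these 10 genes was higher in all 3 glp-1 libraries than in any TU3401 library, by 1.13 (vit-6) to 2.65 (C17F4.7) on the log2 scale. On the muscle scale vit-2, vit-5 and vit-6 stood at -0.34, -0.07 and -0.60.

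TU3401 worms were led by the machinery of translation instead. eef-1A.1, the elongation factor that brings tRNA to the ribosome, stood at 1754, 1732 and 1763 RPKM in glp-1 worms, against 7163, 7714 and 7492 RPKM in TU3401 worms (log2 difference -2.09 ± 0.05 SE). The ribosomal protein genes rpl-39, rps-25, rpl-41, rps-23, rpl-38 and rpl-29 and the gene Y37E3.8 were the next most abundant in TU3401 apart from far-2 and vit-6. They fell by less than eef-1A.1 in glp-1 worms, with log2 differences of -1.21 (Y37E3.8) to -0.83 (rps-25).

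Only 5 genes were on in glp-1 worms and off in TU3401 worms, with at least 10 RPKM in all 3 glp-1 libraries and under 0.5 RPKM in all 3 TU3401 libraries. The converse held for 229 genes, 27 of them X-linked, beside 14.7% X-linked among all tested genes placed on a chromosome. The 5 were H39E23.3, scl-20, the collagens col-183 and col-36, and the glucuronosyltransferase gene ugt-27. Among the 15 largest rises was comt-4, a catechol-O-methyltransferase family gene, at 191, 121 and 161 RPKM in glp-1 worms, against 2.35, 2.05 and 2.23 RPKM in TU3401 worms. C30G12.2 stood at 590, 1023 and 1019 RPKM in glp-1 worms, against 16.8, 18.8 and 18 RPKM in TU3401 worms. ftn-1, which encodes the iron storage protein ferritin, stood at 171, 215 and 310 RPKM in glp-1 worms, against 6.51, 5.46 and 7.84 RPKM in TU3401 worms. The metallothionein gene mtl-1, which binds zinc and cadmium, stood at 2712, 2493 and 3113 RPKM in glp-1 worms, against 110, 75.3 and 96.1 RPKM in TU3401 worms. These 4 genes rose by 4.88 (mtl-1) to 5.60 (comt-4), and none of their libraries overlapped between groups.

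The same strain on other RNAi gave values beside these. In the 9 glp-1 libraries on other RNAi, comt-4 lay at 72.6 to 224 RPKM, C30G12.2 at 993 to 1296, ftn-1 at 249 to 502 and mtl-1 at 2430 to 3464 RPKM. dct-8 was the loosest of the 15. It stood at 781, 435 and 697 RPKM in glp-1 worms, against 33.4, 2.22 and 16.6 RPKM in TU3401 worms, a difference of 5.63 ± 0.80, and at 37.8 to 1395 RPKM in the 9 further libraries.

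Among the 15 largest falls were gln-6, gfat-2 and nasp-2. gln-6, a glutamine synthetase gene, stood at 6.71, 0.0963 and 0.232 RPKM in glp-1 worms, against 820, 798 and 830 RPKM in TU3401 worms. gfat-2, whose enzyme makes the amino sugar for chitin, stood at 3.67, 0 and 0.0201 RPKM in glp-1 worms, against 498, 496 and 506 RPKM in TU3401 worms. nasp-2, related to a histone chaperone, stood at 8.07, 0.213 and 0.343 RPKM in glp-1 worms, against 872, 872 and 914 RPKM in TU3401 worms. In each of the 3 genes the first glp-1 library was the highest of its group, as in the oocyte marker sum. Their differences were -8.55 (gln-6), -8.22 (gfat-2) and -8.50 (nasp-2), and without that library -9.46, -8.96 and -9.44.

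Chromosomes differed in their share of the RNA. In C. elegans the X is largely silenced in germ cells, and genes for general cell functions are rare on it. X-linked genes took 25.6%, 27% and 26.9% of reads in glp-1 worms, against 10.6%, 11% and 10.3% in TU3401 worms, a ratio of 2.49. Chromosome I took 10.6%, 10.7% and 10.6% of reads in glp-1 worms, against 20.0%, 20.1% and 20.2% in TU3401 worms. Chromosome III took 13.3%, 13.2% and 13.2% in glp-1 worms, against 20.4%, 20.5% and 20.6% in TU3401 worms. Chromosome II took 11.6% ± 0.194 of reads in glp-1 worms and 14.1% ± 0.151 in TU3401 worms (SD, n = 3 each). Chromosomes IV and V were higher, IV at 20.6% ± 0.0259 in glp-1 worms and 18.7% ± 0.0553 in TU3401 worms, and V at 16.5% ± 0.567 in glp-1 worms and 14.02% ± 0.211 in TU3401 worms. None of the 6 chromosomes overlapped between groups, and the exact 2-sided permutation p for each was 0.1, the smallest that 3 against 3 libraries allow. Yolk genes are abundant and mostly X-linked; without the genes named vit the X took 17.18% ± 0.255 of reads in glp-1 worms and 6.52% ± 0.0598 in TU3401 worms (SD, n = 3 each), a ratio of 2.63.

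Gene by gene, 845 of 1968 tested X-linked genes (42.9%) were higher by at least 1 and 313 (15.9%) lower, with a median log2 difference of 0.79. On chromosome I 386 of 2126 genes (18.2%) were higher and 1151 (54.1%) lower, with a median of -1.22. Chromosome V was the autosome nearest to the X, with 39.1% higher, 30.8% lower and a median of 0.62. Medians were -0.64 on the X and -2.76 on chromosome I on the muscle scale, so the direction of the X median depends on the scale and its place above the autosomes does not. The gap differed with the level of the gene, taken as the mean over both groups, which the difference itself also moves. In the 2 lower quartiles of mean RPKM, X-linked and autosomal genes had like medians, 0.59 and 0.40 in the lowest quartile and 0.47 and 0.50 in the next, where 22.6% of X-linked and 36.1% of autosomal genes were lower by at least 1. In the third quartile, of genes with 16.7 to 44.2 RPKM, the medians were 0.95 for 373 X-linked genes and -1.75 for 2964 autosomal genes. In the top quartile they were 1.55 for 321 X-linked genes and -1.01 for 3017 autosomal genes.

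**Figure D2:**
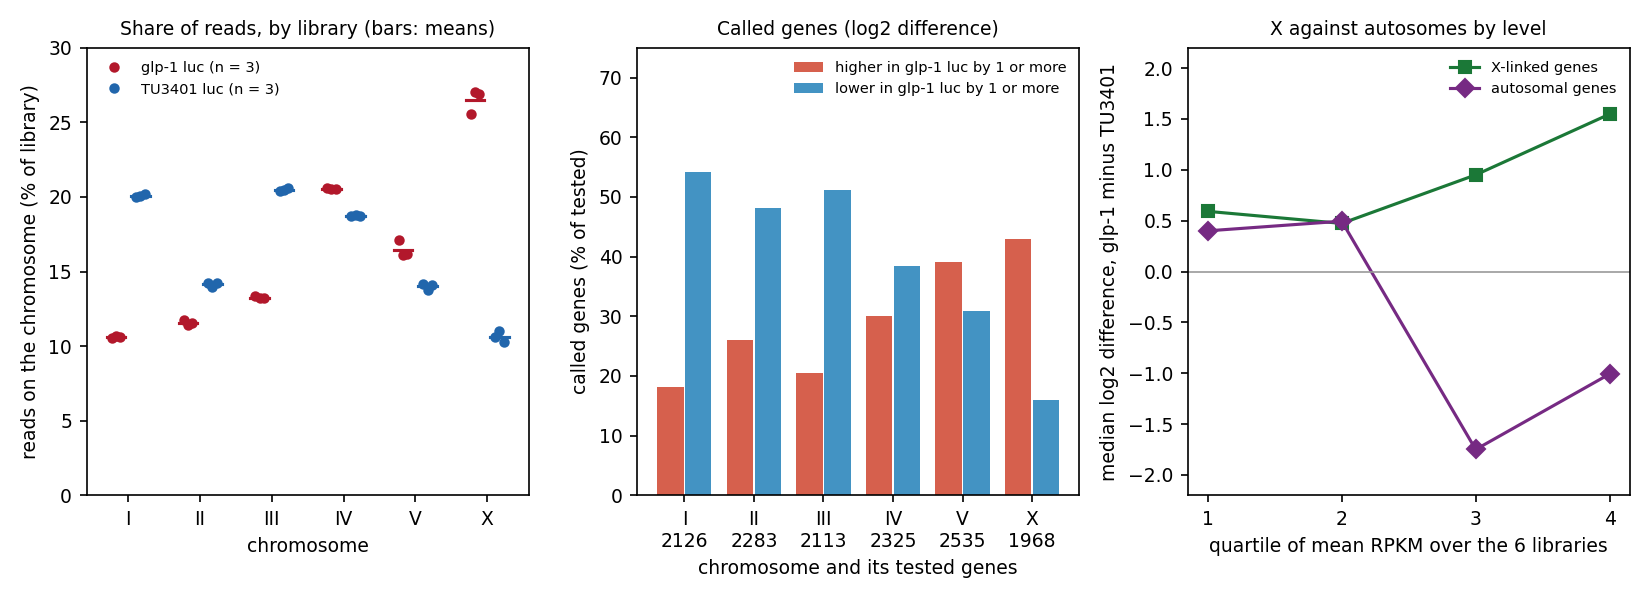
Left, the percentage of each library's reads on each chromosome in glp-1 (red) and TU3401 (blue) libraries, with bars for means; middle, the percentage of tested genes higher or lower in glp-1 worms by at least 1 on the log2 scale; right, the median log2 difference of X-linked and autosomal genes by quartile of mean RPKM. The X share is 25.6% to 27% in glp-1 libraries and 10.3% to 11% in TU3401 libraries, and the X and autosome medians part in the 2 upper quartiles. The median over all X-linked genes is -0.64 on the muscle scale.

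Position within a chromosome went with the difference as well. Many worm genes lie close behind one another on the same strand and are transcribed together as operons, which hold mostly genes for general cell functions. Of 4566 protein-coding genes with a same-strand neighbour less than 500 bases away, 2445 (53.5%) were lower by at least 1 and 994 (21.8%) higher, with a median of -1.18. Of 8022 without one, 33.5% were lower and 34.2% higher, with a median of 0.29. On the X the medians were 0.78 for 356 genes with such a neighbour and 0.80 for 1514 without. Whether a pair is an operon was not tested.

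Genes that run the nucleus fell nearly without exception. In the lists for splicing (51 genes), nuclear pore and import (38), RNA polymerase II and Mediator (38) and the DREAM and retinoblastoma pathway (13), every tested gene fell, with medians of -2.80, -3.18, -2.64 and -3.31 beside -0.19 over all genes. The splicing genes spanned a narrow range, from -4.03 (prp-38) to -1.5. Nuclear import had the largest single fall, ima-2, an importin alpha of the germline, at 4.31, 0.501 and 0.537 RPKM in glp-1 worms, against 417, 400 and 411 RPKM in TU3401 worms. lin-54, the DNA-binding subunit of DREAM, which represses cell cycle genes, stood at 1.74, 1.71 and 1.38 RPKM in glp-1 worms, against 98.9, 102 and 101 RPKM in TU3401 worms. For every gene of these 4 lists all glp-1 libraries were lower than all TU3401 libraries.

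Chromatin and nucleolar genes behaved alike with a few exceptions. Of 42 genes for silencing and histone methylation 41 fell (median -2.72). mes-4, a germline histone H3 lysine 36 methyltransferase, stood at 0.642, 0.237 and 0.350 RPKM in glp-1 worms, against 49.7, 45.1 and 44.4 RPKM in TU3401 worms. The gene that rose was X-linked set-30, a SET-domain gene, at 15.2, 15.9 and 15.6 RPKM in glp-1 worms, against 8.06, 5.68 and 7.33 RPKM in TU3401 worms (1.06, but -0.52 on the muscle scale). Of 35 nucleolar and ribosome assembly genes 34 fell (median -2.95), led by ruvb-2, a helicase, at -4.59 and fib-1, the rRNA methyltransferase fibrillarin, at -4.12. The one that rose was ncl-1, which encodes a known repressor of ribosomal RNA production and of nucleolar size. It stood at 66.3, 70.4 and 68.9 RPKM in glp-1 worms, against 47.3, 41.3 and 38.9 RPKM in TU3401 worms (0.68, but -1.02 on the muscle scale). Of 11 nuclear lamina and envelope genes 9 fell, with sun-1, which moves meiotic chromosomes, at -6.19. The giant linker gene anc-1, which anchors nuclei in the hypodermis and muscle, rose by 1.92 (0.34 on the muscle scale).

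Kinetochore, centrosome and DNA repair lists had the lowest medians of the 49. All 36 kinetochore and chromosome segregation genes fell (median -5.1) and all 53 DNA repair and checkpoint genes fell (median -3.48). Of 38 centrosome and spindle genes 36 fell (median -4.11). plk-1, a mitotic kinase, stood at 1.69, 0.0542 and 0.0436 RPKM in glp-1 worms, against 213, 225 and 219 RPKM in TU3401 worms. mdf-2, of the spindle checkpoint, stood at 2.13, 0.340 and 0.273 RPKM in glp-1 worms, against 208, 199 and 208 RPKM in TU3401 worms. air-2, the Aurora B kinase, stood at 1.4, 0.0581 and 0.0467 RPKM in glp-1 worms, against 106, 109 and 117 RPKM in TU3401 worms. All 3 genes were highest in the first glp-1 library and still far under TU3401. One gene of the list rose, the formin cyk-1, by 0.37 (-1.27 on the muscle scale).

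Of 19 nucleotide synthesis genes 4 rose and 13 fell, with a median of -1.18. The DNA precursor genes dut-1, rnr-1 and rnr-2, for dUTPase and the ribonucleotide reductase subunits, had differences of -7.01, -6.65 and -6.79. rnr-2 stood at 14.4, 4.56 and 3.63 RPKM in glp-1 worms, against 817, 790 and 833 RPKM in TU3401 worms. Purine synthesis genes went both ways. atic-1, for the last steps of purine synthesis, stood at 91.7, 91.9 and 94.3 RPKM in glp-1 worms, against 14.6, 14.7 and 15.7 RPKM in TU3401 worms. It rose by 2.55 and ppat-1, for the first step, by 1.83, and both stayed above 0 on the muscle scale (0.87 and 0.20). The purine genes adsl-1 and gmps-1 fell, at -0.98 and -1.18, as did the pyrimidine genes umps-1 and ctps-1, at -1.99 and -2.33.

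**Figure D3:**
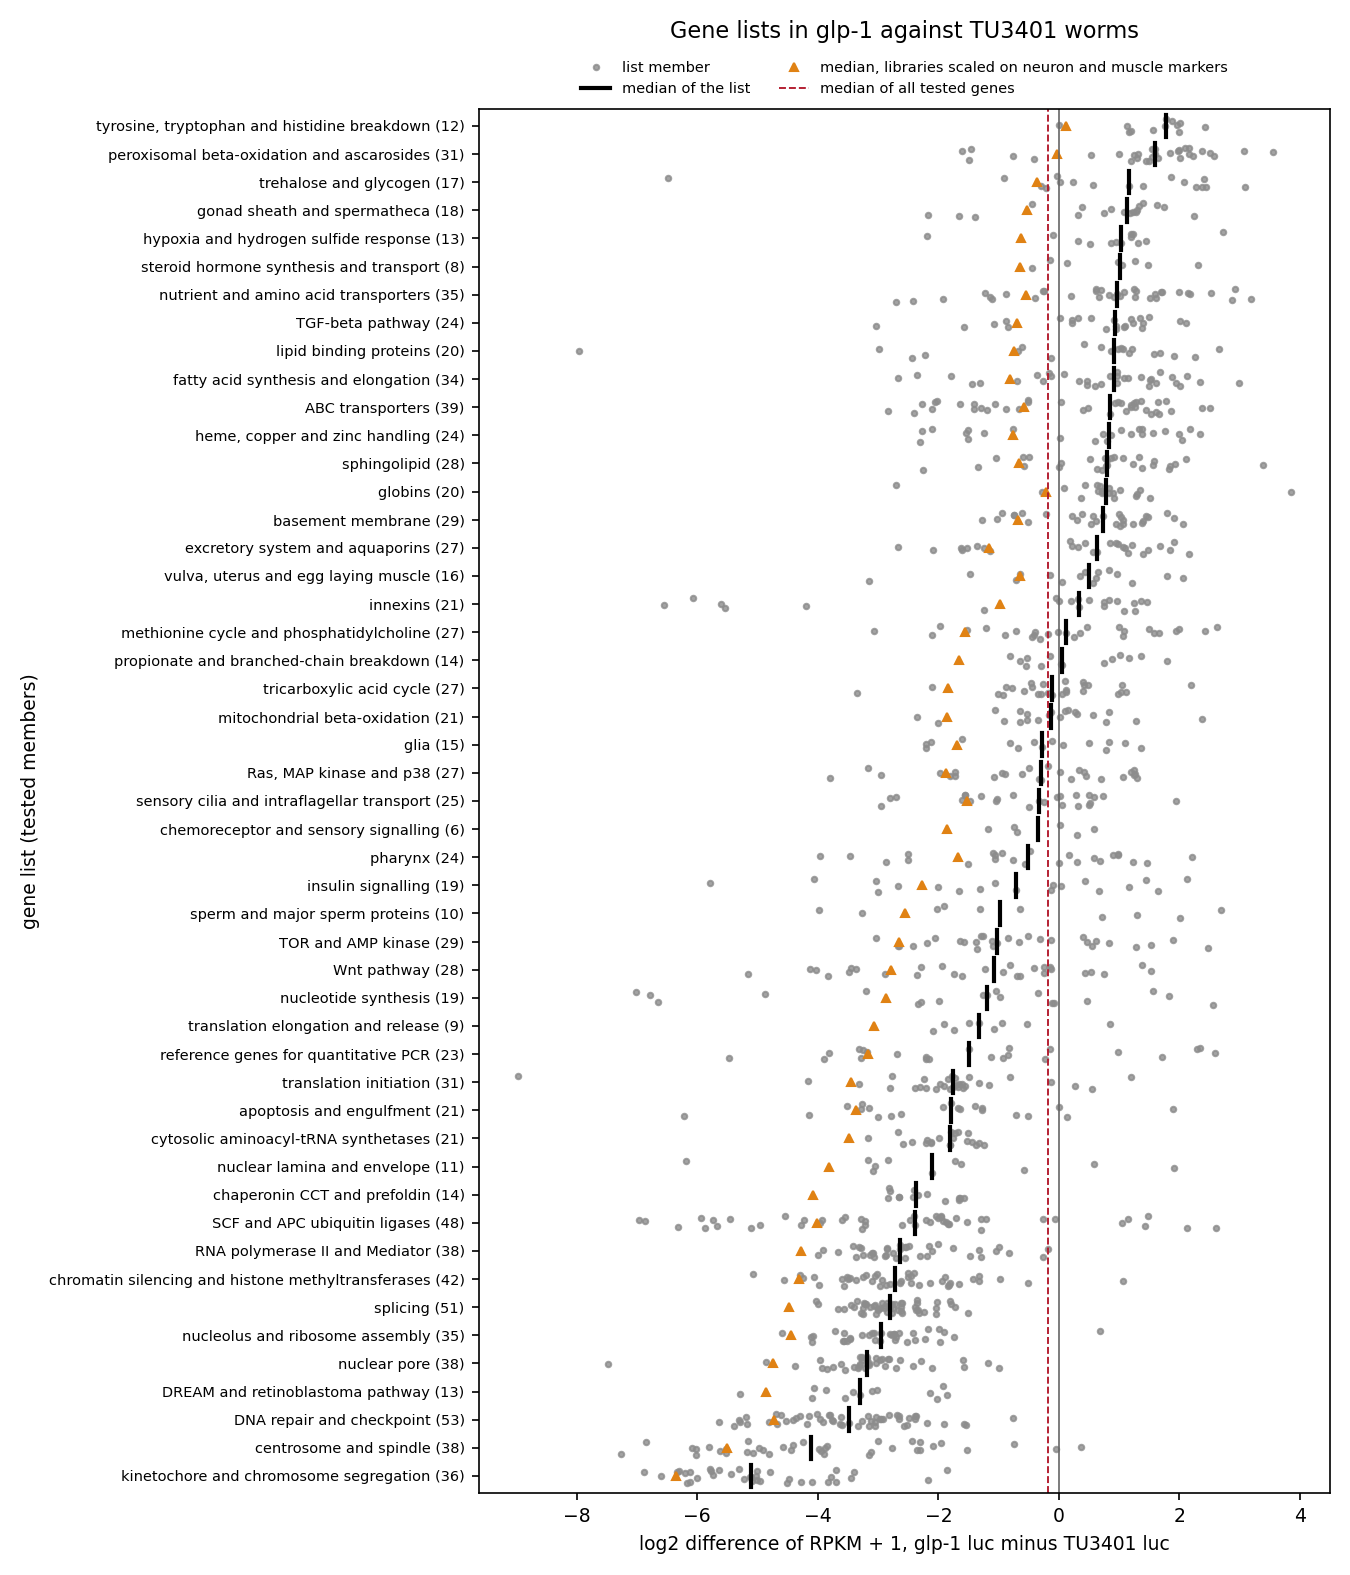
Log2 difference of RPKM + 1 (glp-1 minus TU3401) of every tested member of 49 gene lists, sorted by list median. Black bars are medians, orange triangles the medians with libraries scaled on neuronal and muscle markers, and the dashed line the median of all tested genes (-0.19). Kinetochore, centrosome and DNA repair lists lie lowest, and tyrosine, tryptophan and histidine breakdown and peroxisomal beta-oxidation highest, while no list but tyrosine, tryptophan and histidine breakdown keeps a median above 0 on the muscle scale.

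Translation and protein folding genes fell by less than those of division. All 21 cytosolic aminoacyl-tRNA synthetase genes, which charge tRNAs, fell (median -1.80), from -3.17 (lars-1) to -1.25. All 14 genes of the CCT chaperonin and prefoldin, which fold actin and tubulin, fell within a narrow range of -2.84 (cct-8) to -1.57. Of 31 translation initiation genes 27 fell and 3 rose (median -1.76). The cap-binding proteins of the germline, ife-1 and ife-3, fell by 3.32 and 4.17. ife-2, their counterpart in the soma, stood at 97.3, 98.6 and 95.4 RPKM in glp-1 worms, against 78.8, 79.8 and 83.2 RPKM in TU3401 worms (0.27, but -1.45 on the muscle scale). The mitochondrial ribosome moved as a block: all 27 genes named mrps and all 39 named mrpl fell, with medians of -2.02 and -1.91. mrpl-18 had the largest of these falls, at 10.8, 12.1 and 13.5 RPKM in glp-1 worms, against 91, 84.3 and 92.4 RPKM in TU3401 worms.

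Some closely related genes parted, one copy falling and another rising. Of 50 sets of numbered copies, 5 held calls of at least 1 in both directions. Over all tested genes 29.5% were higher and 39.8% lower by at least 1. Whether these shares alone would give more or fewer such sets was not tested. In the ucr-2 set, for a core subunit of mitochondrial complex III, ucr-2.3 stood at 2.12, 0.581 and 0.668 RPKM in glp-1 worms, against 105, 117 and 114 RPKM in TU3401 worms. ucr-2.1 stood at 154, 168 and 167 RPKM in glp-1 worms, against 62.5, 68.1 and 62.2 RPKM in TU3401 worms. ucr-2.3 was thus the most abundant copy in TU3401 and nearly absent in glp-1 worms, with differences of -5.81 for it, 1.33 for ucr-2.1 and 1.24 for ucr-2.2. In the sirtuin set, NAD-dependent deacylases, sir-2.2 stood at 48.4, 49.2 and 46.8 RPKM in glp-1 worms, against 13.7, 13.1 and 13.7 RPKM in TU3401 worms. sir-2.1 stood at 11.5, 11 and 10.2 RPKM in glp-1 worms, against 59.4, 58.8 and 58.5 RPKM in TU3401 worms. The phosphate and glutamate transporter relatives slc-17.6 and slc-17.2 differed by 1.67 and -2.42, and the ribosomal sets were rpl-11 and rpl-25. In 4 of the 5 sets (rpl-11.2, rpl-25.1, ucr-2.1 and sir-2.2) the copy that rose most is X-linked, and none of the copies that fell most (rpl-11.1, rpl-25.2, ucr-2.3, sir-2.4 and slc-17.2) is. Among all tested genes placed on a chromosome 14.7% are X-linked, as are 845 of the 4003 genes higher by at least 1. On the muscle scale ucr-2.1, rpl-11.2 and rpl-25.1 stood at -0.39, -0.44 and -0.20, while sir-2.2 and slc-17.6 stood at 0.095 and 0.039.

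The same was seen between relatives that are not numbered as copies. gpd-1, a gene for the glycolytic enzyme glyceraldehyde-3-phosphate dehydrogenase, stood at 12.8, 8.68 and 9.53 RPKM in glp-1 worms, against 497, 484 and 508 RPKM in TU3401 worms. gpd-2 stood at 1375, 1572 and 1534 RPKM in glp-1 worms, against 274, 311 and 298 RPKM in TU3401 worms. gpd-3 mirrored gpd-2 with 1350, 1519 and 1482 RPKM in glp-1 worms, against 287, 297 and 297 RPKM in TU3401 worms. Of these 3 genes gpd-1 was thus the lowest in glp-1 worms and the highest in TU3401 worms. idhg-1 and idhg-2, for the regulatory subunit of mitochondrial isocitrate dehydrogenase, stood at -2.11 and 2.2. idhg-2 had 86.8, 102 and 91.2 RPKM in glp-1 worms, against 18.1, 22 and 18.7 RPKM in TU3401 worms. Near-identical copies such as gpd-2 and gpd-3 or the actins can share reads, which makes the split between them uncertain.

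**Figure D4:**
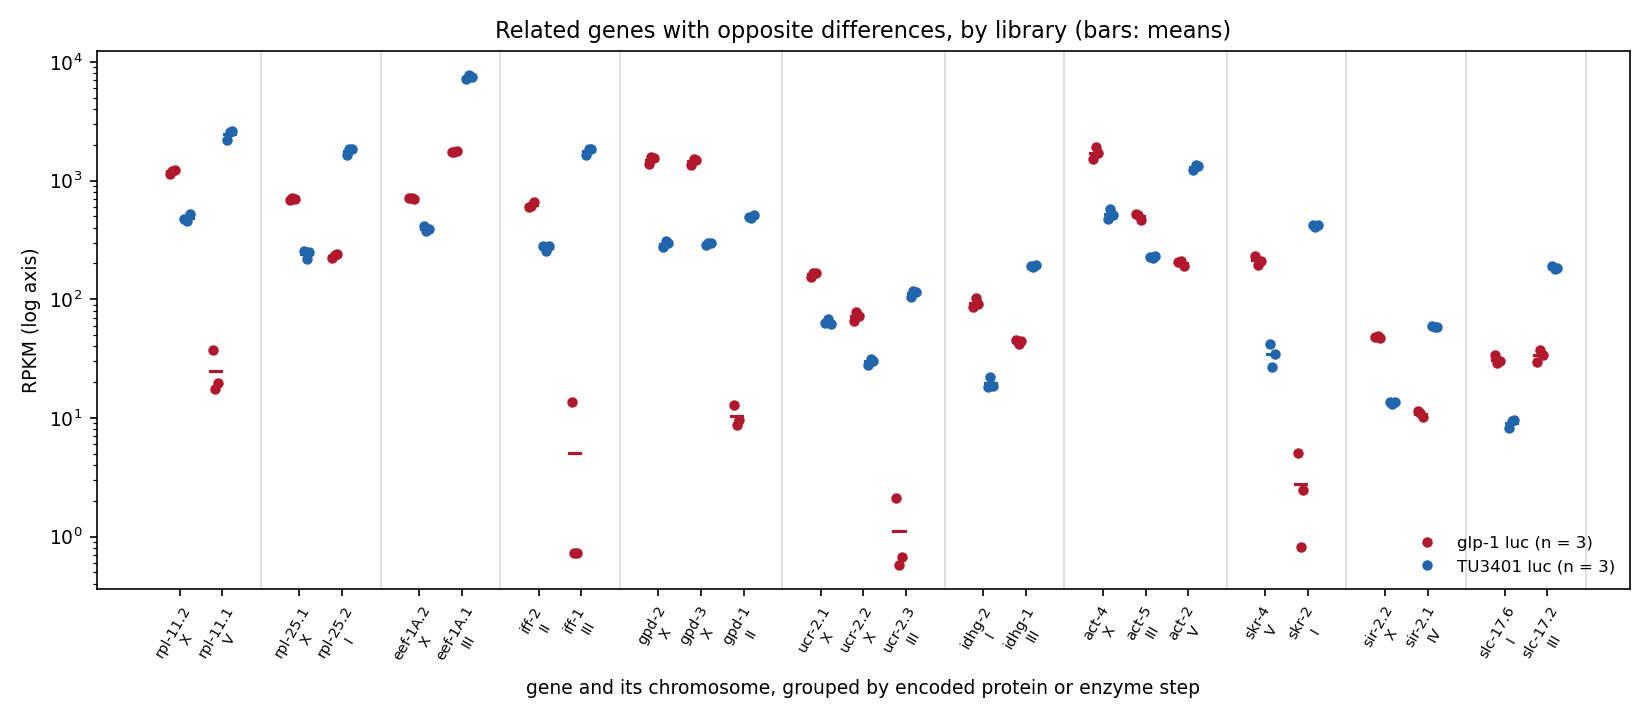
RPKM (log axis) of related genes in 3 glp-1 libraries (red) and 3 TU3401 libraries (blue), with bars for means and the chromosome under each name. In each set 1 or 2 genes are higher in every glp-1 library and another is lower in every glp-1 library than in TU3401. On the muscle scale ucr-2.1, rpl-11.2 and rpl-25.1 turn lower, at -0.39, -0.44 and -0.20.

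Large gene families of ubiquitin ligase adaptors were divided by family. F-box proteins carry targets to the SCF ubiquitin ligase, and in worms these families are large and quickly evolving. Of 109 fbxb genes listed 74 were tested, and of 188 fbxa genes 106. All 74 tested fbxb genes fell, 73 of them by at least 1 (median -2.19). fbxb-91 had the largest of these, at 0.105, 0 and 0 RPKM in glp-1 worms, against 10.9, 11.7 and 11.4 RPKM in TU3401 worms. A gene so near 0 in glp-1 worms passes the filter only through TU3401, which fixes the direction of its difference. The part of the filter in the shared fall was not tested. Of 106 fbxa genes 69 rose and 26 fell, 51 and 22 of them by at least 1 (median 0.96, but -0.21 on the muscle scale). The largest change among these was again a fall, fbxa-215, at 2.1, 0 and 0 RPKM in glp-1 worms, against 246, 255 and 255 RPKM in TU3401 worms. Genes with a MATH domain split likewise: of 31 bath genes, which add a BTB domain that binds another ubiquitin ligase, 29 fell (median -2.91), while of 19 math genes 16 rose (median 1.66, and 0.13 on the muscle scale). Members of these families resemble each other, so reads may be shared between them.

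The Skp1-related genes, which link F-box proteins to the ligase, showed both patterns within 1 family of 19 tested genes, 13 of which fell and 5 rose. skr-2 stood at 5.09, 0.813 and 2.45 RPKM in glp-1 worms, against 426, 407 and 421 RPKM in TU3401 worms. skr-4 stood at 233, 194 and 210 RPKM in glp-1 worms, against 42.4, 26.8 and 34.7 RPKM in TU3401 worms. skr-1, the family's general member, was nearest to even, at 419, 402 and 389 RPKM in glp-1 worms, against 433, 416 and 416 RPKM in TU3401 worms (-0.07, adjusted p = 0.245). The differences were -6.96 for skr-2 and 2.6 for skr-4, which stood at 0.89 on the muscle scale. Of all 48 tested genes in the SCF and APC list, which also holds other cullin and SUMO genes, 41 fell and 6 rose (median -2.39).

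Over 102 gene classes with at least 10 tested members, the 8 lowest medians belonged to cec, him, skr, npp, rpb, bath, cdc and taf. They run from -3.84 (chromodomain genes, cec) to -2.58 (the TFIID subunits, taf), and in cec, npp, rpb, cdc and taf every member fell. The 8 highest belonged to nspc, asp, dct, flp, spp, math, lec and ttr. On the muscle scale asp, dct and spp had medians of 0.46, 0.26 and 0.12, and ttr turned to -0.067. All 14 nspc genes, a nematode-specific peptide family, rose by 1.69 to 3.39 (median 2.71, and 1.01 on the muscle scale, where 14 of 14 were still called higher). All 30 FMRFamide-like neuropeptide genes, flp, rose (median 1.76, 0.08 on the muscle scale). All 12 galectin genes, lec, rose (median 1.62, but -0.06 on the muscle scale). Among flp genes flp-20 rose most, with 14.4, 17 and 15 RPKM in glp-1 worms, against 1.47, 1.94 and 2.44 RPKM in TU3401 worms. Of 23 insulin-like peptide genes, ins, 19 rose (median 1.47, 0.01 on the muscle scale), with ins-19 at 29, 30.1 and 26.3 RPKM in glp-1 worms, against 1.04, 0.432 and 0.482 RPKM in TU3401 worms. The median neuronal marker, at 0.92 as given above, lay below both peptide medians.

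**Figure D5:**
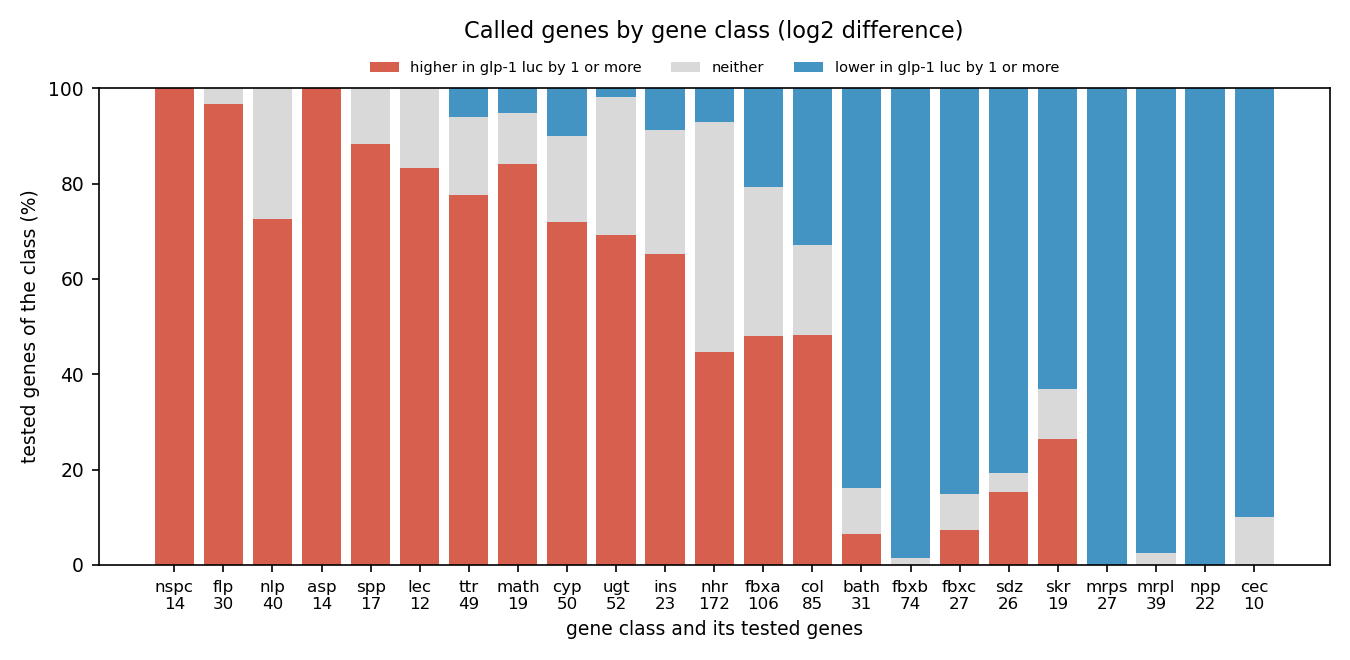
Share of tested genes in 23 gene classes that were higher (red) or lower (blue) in glp-1 worms by at least 1 on the log2 scale, or neither (grey), with the number tested under each name. 98.6% of fbxb and 83.9% of bath genes are lower, while 48.1% of fbxa and 84.2% of math genes are higher, and all 14 nspc and 14 asp genes are higher. On the muscle scale the medians of fbxa, col, nhr, ttr, lec, nlp and ugt turn to -0.21, -0.73, -0.32, -0.067, -0.063, -0.060 and -0.046. The math median stays at 0.13.

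Metabolic lists differed from one another, and the scale sets the direction of most of their medians above 0. Peroxisomal beta-oxidation, which shortens very long fatty acids and makes ascaroside pheromones, had 26 of 31 genes higher and 5 lower (median 1.59, but -0.04 on the muscle scale, where 11 were higher and 7 lower). F08A8.2, an acyl-CoA oxidase gene now named acox-1.2, stood at 58.1, 97.8 and 78 RPKM in glp-1 worms, against 4.17, 7.19 and 5.78 RPKM in TU3401 worms. Its neighbour F08A8.4, now acox-1.4, stood at 84.1, 98.1 and 91.1 RPKM in glp-1 worms, against 9.73, 10.3 and 9.72 RPKM in TU3401 worms. The 5 that fell were prx-10 (-1.61), pmp-3 (-1.49), prx-14 (-1.46), prx-19 (-0.76) and mlcd-1 (-0.42). Of the 11 tested prx genes, which serve peroxisome assembly and import, 8 rose (median 1.24, but -0.25 on the muscle scale). Mitochondrial beta-oxidation did not share the rise: of 21 genes 6 rose and 10 fell (median -0.14).

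Fat synthesis and storage genes rose in 23 of 34 cases and fell in 8 (median 0.91, but -0.81 on the muscle scale). dgat-2, for the last step of triglyceride synthesis, stood at 190, 128 and 146 RPKM in glp-1 worms, against 23, 13.7 and 19.8 RPKM in TU3401 worms. The fatty acid elongase gene elo-6 stood at 1536, 1710 and 1682 RPKM in glp-1 worms, against 354, 383 and 387 RPKM in TU3401 worms. dgat-2 and elo-6 rose by 2.98 and 2.13 and stayed above 0 on the muscle scale, at 1.29 and 0.40. The acyl-CoA synthetase genes acs-4 and acs-13 fell by 2.66 and 2.36. Of 20 lipid binding protein genes 13 rose and 6 fell (median 0.92, but -0.74 on the muscle scale). The yolk receptor gene rme-2, which oocytes use to take up yolk, stood at 4.29, 0.0192 and 0.0309 RPKM in glp-1 worms, against 462, 431 and 436 RPKM in TU3401 worms. dsc-4, a microsomal triglyceride transfer protein that loads lipid onto yolk particles, rose to 86.5, 75.6 and 78.6 RPKM in glp-1 worms, against 17.3, 15.2 and 15.4 RPKM in TU3401 worms. The genes that load and that take up yolk thus had opposite differences, 2.26 and -7.97.

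The trehalose and glycogen list, which holds genes of synthesis and of breakdown, had 11 of 17 genes higher and 4 lower (median 1.17, but -0.36 on the muscle scale). tps-2 and tps-1, for trehalose synthesis, rose by 3.09 and 2.41, and stood at 1.42 and 0.79 on the muscle scale. tps-2 had 114, 109 and 109 RPKM in glp-1 worms, against 12.4, 11.7 and 12.1 RPKM in TU3401 worms. The trehalase genes tre-1 to tre-5, for trehalose breakdown, had differences of 0.24 (tre-1) to 2.37 (tre-4). gyg-2, a glycogenin gene that primes glycogen, fell to 6.58, 2.95 and 2.56 RPKM in glp-1 worms, against 427, 412 and 438 RPKM in TU3401 worms. The sugar transporter genes swt-1 and hmit-1.1 rose by 2.93 and 3.19 within a list of 35 nutrient transporters, of which 25 rose and 9 fell (median 0.97, but -0.55 on the muscle scale).

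Tyrosine, tryptophan and histidine breakdown had the highest median of the 49 lists. Of its 12 genes 11 rose and 0 fell (median 1.77, and 0.11 on the muscle scale, where 3 were higher and 4 lower). fah-1, for the last step of tyrosine breakdown, stood at 226, 261 and 255 RPKM in glp-1 worms, against 54.9, 64.5 and 63.3 RPKM in TU3401 worms. Propionate and branched-chain breakdown had 6 of 14 genes higher and 5 lower (median 0.05, but -1.66 on the muscle scale). The tricarboxylic acid cycle had no common direction, with 9 of 27 genes higher and 13 lower (median -0.12). sucg-1, the GTP-forming subunit of succinyl-CoA ligase, fell to 9.64, 9.87 and 10.03 RPKM in glp-1 worms, against 102, 115 and 112.9 RPKM in TU3401 worms. Of the partner genes for the alpha subunit, sucl-1 rose by 1.12 (-0.60 on the muscle scale) and sucl-2 stood at -0.58. In the methionine cycle list 13 of 27 rose and 10 fell (median 0.12, but -1.56 on the muscle scale), with the N-methyltransferase relatives anmt-3 and anmt-2 at 2.62 and 2.42 and the methionine synthase reductase gene mtrr-1 at -3.07.

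Oxygen and sulfide genes rose in 11 of 13 cases and fell in 1 (median 1.03, but -0.63 on the muscle scale). sqrd-1, a mitochondrial enzyme that detoxifies hydrogen sulfide, stood at 38.5, 52.1 and 41.5 RPKM in glp-1 worms, against 6.60, 4.61 and 6.26 RPKM in TU3401 worms. hif-1, the hypoxia-inducible factor, stood at 134, 124 and 137 RPKM in glp-1 worms, against 55.6, 50.6 and 51.4 RPKM in TU3401 worms. Their differences were 2.72 and 1.31, and 1.11 and -0.40 on the muscle scale. glb-1, the most abundant globin gene, stood at 1501, 1631 and 1449 RPKM in glp-1 worms, against 108, 97.8 and 108 RPKM in TU3401 worms, a rise of 3.85 that was 2.13 on the muscle scale. Of 20 globin genes 16 rose and 1, glb-26, fell (median 0.77, but -0.22 on the muscle scale).

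Signalling pathways differed by component more than as wholes. In insulin signalling, which restrains longevity through the kinases that hold DAF-16 in the cytoplasm, 6 of 19 genes rose and 10 fell (median -0.71). akt-2, a kinase of the pathway, stood at 37.7, 34.2 and 33 RPKM in glp-1 worms, against 8.44, 6.09 and 7.28 RPKM in TU3401 worms. The difference was 2.13 for akt-2, which is X-linked and stood at 0.51 on the muscle scale. Its relative akt-1 fell by 1.05, and the largest falls of the list were daf-18, hcf-1 and aap-1, at -5.79, -4.06 and -3.03. In the TOR and AMP kinase list 9 of 29 rose and 19 fell (median -1.02). The AMP kinase subunit genes aakg-4 and aakb-1 rose by 2.47 and 1.90 (0.88 and 0.22 on the muscle scale), while par-4, whose LKB1 kinase activates AMP kinase, fell by 3.03.

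In the Wnt pathway 5 of 28 genes rose and 20 fell (median -1.08). mom-2, a Wnt of the early embryo, stood at 3.00, 1.76 and 1.73 RPKM in glp-1 worms, against 114, 107 and 111 RPKM in TU3401 worms. Of the 4 beta-catenins sys-1, wrm-1 and hmp-2 fell, at -4.13, -3.47 and -2.36, and bar-1 rose, at 1.52 (0.0023 on the muscle scale). The TGF-beta list had 16 of 24 higher and 5 lower (median 0.94, but -0.69 on the muscle scale), with the body size genes sma-10 and lon-1 at 2.11 and 2.01. Apoptosis and engulfment genes fell in 18 of 21 cases and rose in 1 (median -1.79). ced-3, the executioner caspase, stood at 2.06, 0.564 and 0.681 RPKM in glp-1 worms, against 153, 149 and 143 RPKM in TU3401 worms. nuc-1, a lysosomal nuclease that digests DNA of engulfed cells and food, was the gene that rose, by 1.89 (0.17 on the muscle scale). ced-1, the engulfment receptor, was the most even of all genes with at least 50 RPKM, at 56.3, 53 and 54.9 RPKM in glp-1 worms, against 60.2, 52.1 and 52.1 RPKM in TU3401 worms.

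Innexins form gap junctions in invertebrates, and in the gonad INX-8 and INX-9 of the sheath pair with INX-14, INX-21 and INX-22 of germ cells. inx-14 stood at 1.1, 0 and 0 RPKM in glp-1 worms, against 120, 116 and 121.7 RPKM in TU3401 worms. inx-22 stood at 0.820, 0.0384 and 0.0309 RPKM in glp-1 worms, against 82.9, 81.1 and 83.5 RPKM in TU3401 worms. inx-8 stood at 184, 173 and 178 RPKM in glp-1 worms, against 79.3, 83.5 and 89.0 RPKM in TU3401 worms. Germline innexins fell, at -6.55 (inx-14), -4.20 (inx-21) and -6.06 (inx-22), and sheath innexins rose by 1.08 (inx-8) and 0.75 (inx-9), which stood at -0.64 and -0.93 on the muscle scale. Of 18 tested genes of the gonad sheath and spermatheca 13 rose and 4 fell (median 1.13, but -0.53 on the muscle scale). itr-1, the inositol trisphosphate receptor needed for ovulation, rose by 2.25 (0.62 on the muscle scale). lag-2, the GLP-1 ligand made by the distal tip cells, stood at 0.655, 0.441 and 0.284 RPKM in glp-1 worms, against 3.64, 3.36 and 3.75 RPKM in TU3401 worms, a fall of 1.66.

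Skin and cuticle genes went both ways. col-19, an adult cuticle collagen, stood at 1084, 1473 and 1105 RPKM in glp-1 worms, against 266, 434 and 375 RPKM in TU3401 worms. dpy-7, a collagen of cuticle renewal, stood at 0.466, 0.223 and 0.134 RPKM in glp-1 worms, against 27.8, 16.4 and 21.7 RPKM in TU3401 worms. nhr-23, a nuclear receptor that drives moulting, stood at 4.46, 3.57 and 3.65 RPKM in glp-1 worms, against 38.1, 36.6 and 34.7 RPKM in TU3401 worms. Of 8 hypodermal markers tested, 3 rose (col-19, grd-10 and elt-3) and 5 fell (dpy-7, nhr-23, lin-26, col-10 and dpy-13). Among pharynx genes 8 of 24 rose and 12 fell (median -0.52, but 0.44 over those of at least 5 RPKM), unlike the 7 pharynx markers (5 rose, 1 fell, median 0.90), with abu-14 and phat-5 at -3.97 and -3.46. The second TU3401 library was the lowest of its group for dpy-7, col-10, dpy-13, abu-14 and phat-5. The part that embryo RNA, whose markers are given above, has in these falls was not tested.

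Basement membrane genes rose in 20 of 29 cases and fell in 7 (median 0.72, but -0.67 on the muscle scale). The type IV collagen genes let-2 and emb-9, the main sheet of the membrane, rose by 1.91 and 1.80 and ost-1, the calcium-binding protein SPARC, by 2.06. ost-1 stood at 978, 1016 and 1001 RPKM in glp-1 worms, against 246, 229 and 242 RPKM in TU3401 worms. On the muscle scale the 3 genes stood at 0.18, 0.079 and 0.33. Their receptor subunit pat-3, a beta integrin, and the syndecan gene sdn-1 fell by 1.03 and 1.28.

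Genes used as references for quantitative PCR were among those that differed. Of 23 tested 17 fell and 5 rose (median -1.49), and 1 did not pass the test. act-2, an actin gene, stood at 205, 210 and 192 RPKM in glp-1 worms, against 1238, 1364 and 1316 RPKM in TU3401 worms, while act-4 stood at 1512, 1904 and 1718 RPKM in glp-1 worms, against 475, 576 and 510 RPKM in TU3401 worms. pmp-3, a peroxisomal transporter, stood at 18.6, 21.1 and 17.9 RPKM in glp-1 worms, against 59.3, 54.1 and 54.2 RPKM in TU3401 worms. cdc-42, a small GTPase, stood at 196, 171 and 174 RPKM in glp-1 worms, against 313, 323 and 320 RPKM in TU3401 worms. The differences ran from -5.47 (gpd-1) to 2.58 (csq-1). The smallest were cyc-2.1, cytochrome c, at -0.14 (adjusted p = 0.0721) and Y45F10D.4, now iscu-1, at -0.23 (adjusted p = 0.00684). The 5 most even genes of at least 50 RPKM were ced-1, F26E4.6, cgt-3, ile-2 and F44E5.1, with differences within 0.01 of 0, chosen for that evenness. On the muscle scale these 5 stood at -1.73 to -1.70.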

How the data were processed

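RNA-seq libraries of whole adult C. elegans were compared, 3 of glp-1 worms and 3 of TU3401 worms, all on luc RNAi. The deposited table holds RPKM values made by the authors, per the file headers. The submitters' processing notes name bcl2fastq, TopHat2 2.1.1 and GRCh38, a human build; neither the worm build nor the counting tool is named in them. The authors also deposited log2 fold changes, p-values and a rank score by p-value for their own comparisons, per the file headers; of the tested genes 12010 had an FDR under 0.05 in the authors' deposited table, and 11758 of these were called here too, all with the same sign.

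RPKM values stepped in whole reads (tolerance 0.001) for 100% of the 24620 detected genes, which gave the depth. Gene lengths behind the RPKM were mostly coding lengths. Counts had been foreseen for the test; since RPKM were given, limma 3.58.1 (R 4.3.3) with a mean-variance trend was run on log2(RPKM + 1) for the 13569 genes that average at least 1 RPKM, with Benjamini-Hochberg adjusted p under 0.05 as a call. The pseudocount of 1 understates differences of low genes. A gene near 0 in either group passes the filter only through the other group, which fixes the direction of its difference. The fit was tested on simulated data in which few genes changed, equally in both directions. That test therefore does not bear on the choice of scale. Summaries used Python 3.11.15, pandas 2.3.3, numpy 2.4.6, scipy 1.17.1 and matplotlib 3.10.9.

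WBcel235 annotation gave biotypes, chromosomes, current names and neighbours; 13350 tested names matched. Genes named by rule are glp-1, sid-1, the 15 largest differences each way, the 10 most abundant genes per group, in each list at most 3 called genes per direction, the reference and marker genes, copies with opposite calls, the largest change per class and the 5 most even genes; others were chosen after their values were seen. Members and lists were chosen with earlier results of these data known. Results for some list members are not reported here.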

Additional observations from a re-analysis of the deposited data

How the results depend on the processing

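The number of called genes ran from 9458 (mean of at least 5 RPKM) to 13803 (no filter) over the alternatives. Those filters change how many genes are tested, so these counts do not compare directly with 12175 of 13569. With the main filter a pseudocount of 0.1 gave 12089 and a fit without trend 12152. Without any 1 library the number lay between 11782 and 12022. Scaling decided direction: on neuronal and body wall muscle markers 1115 genes were higher. The neuron-only scale and the alternatives for the X chromosome were chosen after the data were seen. The X-minus-autosome gap of medians was 1.61 with a pseudocount of 0.1, 1.97 at 5 RPKM or more, 0.22 with no filter, 1.25 on the neuron and muscle scale, 1.41 on the neuron scale, and 1.29 to 1.43 without 1 library. The X ratio without vit genes was 2.63. The cause of these shifts was not tested.

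On the neuron and muscle scale medians turned negative for methionine cycle and phosphatidylcholine (-1.56), fatty acid synthesis and elongation (-0.81), peroxisomal beta-oxidation and ascarosides (-0.036), propionate and branched-chain breakdown (-1.66), trehalose and glycogen (-0.36), sphingolipid (-0.66), hypoxia and hydrogen sulfide response (-0.63), TGF-beta pathway (-0.69), steroid hormone synthesis and transport (-0.64), innexins (-0.97), basement membrane (-0.67), gonad sheath and spermatheca (-0.53), vulva, uterus and egg laying muscle (-0.64), excretory system and aquaporins (-1.16), globins (-0.22), lipid binding proteins (-0.74), ABC transporters (-0.58), nutrient and amino acid transporters (-0.55), heme, copper and zinc handling (-0.75), fbxa (-0.21), prx (-0.25), lec (-0.063) and ttr (-0.067). These are the 23 that turned among the 71 lists and classes examined. Classes outside the 71 turned as well, among them nlp (-0.060), ugt (-0.046), nhr (-0.32) and col (-0.73). On the neuron scale the methionine cycle and propionate lists stood at -0.23 and -0.32. The propionate median was -0.0037 by median of ratios and between -0.0088 (without TU3401 library 2) and 0.099 with 1 library left out. At 5 RPKM or more pharynx stood at 0.44 and ABC transporters at -0.011.

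Genes that turned on the neuron and muscle scale were F44E5.1 (-1.73), act-4 (-0.018), ced-1 (-1.70), cgt-3 (-1.72), cyk-1 (-1.27), elt-3 (-0.41), elt-7 (-0.41), grd-10 (-0.28), hif-1 (-0.40), ife-2 (-1.45), inx-8 (-0.64), inx-9 (-0.93), ncl-1 (-1.02), rpl-11.2 (-0.44), rpl-25.1 (-0.20), set-30 (-0.52), sid-1 (-1.29), snb-1 (-1.66), sucl-1 (-0.60), ucr-2.1 (-0.39), ucr-2.2 (-0.46), vit-2 (-0.34), vit-5 (-0.071) and vit-6 (-0.60). These are the 24 that turned among only 203 genes examined, and 12 more of the 203 lost their call. On the neuron scale F44E5.1, ced-1, cgt-3, ife-2 and snb-1 stood at -0.36, -0.36, -0.36, -0.10 and -0.29. snb-1 is itself most of the sum that sets the neuron scale, and act-4 and snb-1 are both in the neuron and muscle sum.

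With the replicate number as a block 12255 genes were called, 5674 higher and 6581 lower. Deviations of same-numbered libraries correlated at 0.0707, 0.0722 and -0.0238, so the numbers were not taken to pair the libraries.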

Other observations

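Noncoding genes, which the lists above leave out, differed by biotype in the annotation. Of 55 tested lincRNAs 35 were higher and 14 lower in glp-1 worms, with a median log2 difference of 1.14 (-0.12 with libraries scaled on neuronal and muscle markers). Of 116 pseudogenes 39 were higher and 71 lower (median -1.5), and of 56 snoRNAs 10 were higher and 24 lower (median -0.63). Of 249 genes for piRNAs, 59 were higher, 24 lower and 166 did not pass the test; their listed length is 21 bases, so 1 read gives a large RPKM there.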
